A study of Homo sapiens with 42 samples.

Results

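The genes described here drive or restrain the passage of a cell out of G1. They are CDK4, CDK6, CCND2, CCND3, CCNE1, CDKN1A, CDKN1B, CDKN2C, CDKN2D and RB1, taken by name from the expression table, each with its brightest probe set that carries 1 gene symbol. Of these 10 genes, 9 had such a probe set among 18417 genes, and 7 of them lay in the top 40% of genes by mean level (7367 genes), the part in which a gene could be called. CDKN2C was not analysed here. CDKN1A and CDKN2D were measured but lay below the top 40%, so that their tests are given without a call.

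RNA came from HL-60 cells, an established human acute myeloid leukemia line, on 42 Affymetrix Human Gene 1.0 ST arrays, 3 biological replicates in each of 14 groups. In the inhibitor experiment, cells received 10 µM GSK343, an EZH2 inhibitor, or 2.5 µM HKMTI-1-005, which blocks G9a/GLP as well as EZH2, or were left untreated, each with and without 0.1 µM all-trans retinoic acid (ATRA) for 3 days. In the knockdown experiment, cells carried 1 of 2 short hairpins against EZH2 (shEZH2#1 or shEZH2#2) or a non-targeting hairpin (Scr), or were not transduced (WT), again with and without ATRA. Transduced cells had been selected with puromycin and then left to recover, which WT cells did not need, and all groups share the genome of 1 line. EZH2 knockdown below means the average of both hairpins, and an ATRA background means the state in which ATRA was added, of which there are 7.

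In early G1 the D-type cyclins (CCND2 and CCND3 encode cyclins D2 and D3) bind the kinases CDK4 and CDK6, which phosphorylate the retinoblastoma protein RB1 and so weaken its hold on E2F transcription factors. Cyclin E, encoded by CCNE1, then activates CDK2 and completes this step. INK4 proteins such as CDKN2C (p18) and CDKN2D (p19) block CDK4 and CDK6, whereas the CIP/KIP proteins CDKN1A (p21) and CDKN1B (p27) bind cyclin-CDK complexes more widely. Loss of division is a known part of the maturation that retinoic acid induces in myeloid cells, and CDK6 is also known to act in hematopoiesis beyond its kinase role.

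The arrays had medians between 5.31 and 5.56 on the log2 scale. The 6 knockdown arrays of highest median had 5.47 or more. They were Scr replicates 1 and 2, shEZH2#2 replicate 2, Scr+ATRA replicate 3, WT+ATRA replicate 3 and shEZH2#1 replicate 1. These 6 were taken by rank and not at a clear gap, since the other knockdown arrays reached 5.44 and the inhibitor arrays 5.46. Calls of the 7 testable members that change without these 6 arrays are given both ways. EZH2 mRNA, the target of the hairpins, was at 9.13, 9.20 and 9.49 with shEZH2#1 and at 8.98, 9.56 and 9.33 with shEZH2#2, against 10.26, 10.44 and 10.39 in Scr cells. Knockdown arrays lay below all Scr arrays, with a log2 fold change of -1.08 (SE 0.13, adjusted p = 1.72e-05, limma). Scr cells had the highest EZH2 mean of the 14 groups (10.36), with WT cells at 10.02. With ATRA the gap was smaller for shEZH2#2. EZH2 lay between 8.76 and 9.18 with shEZH2#1+ATRA and between 8.96 and 9.64 with shEZH2#2+ATRA. Scr+ATRA arrays lay between 9.93 and 10.04, and WT+ATRA arrays between 9.78 and 10.33. MPO, a granule enzyme of granulocyte precursors, averaged 12.95, and 8 of 8 measured markers of that stage lay in the top 40%. In contrast, 0 of 9 measured markers of lymphoid, erythroid, megakaryocyte or NK cells did (means between 4.21 for HBB and 5.94 for PF4).

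CDK6 was called lower with ATRA in more backgrounds than any other of the 9 genes. Averaged over the 7 backgrounds its log2 fold change was -0.81 (SE 0.08, 95% interval -0.96 to -0.65, adjusted p = 4.51e-10, limma), which leaves 57.1% of the level without ATRA. CDK6 was the 1 of 7 testable members called in this comparison, in which 11.5% of the 7367 genes were called. Its level was lower with ATRA in 7 of 7 backgrounds, and it was called in 4 of them. Among the 7367 genes, 1.59% were called lower in 4 or more backgrounds, and 2 of the 7 testable members (CDK6 and CCND2) were lower in each background, against 16.2% of genes. At least 1 background called 2 of the 7 members lower (12.8% of genes) and 0 higher (9.81% of genes). In bulk RNA, fewer cells with a transcript and less of it per cell cannot be told apart.

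In the inhibitor experiment CDK6 stood at 8.33, 8.22 and 8.84 in ATRA cells, against 10.28, 9.73 and 9.60 in untreated cells. With GSK343+ATRA it was at 8.44, 8.42 and 9.04, against 10.09, 10.15 and 9.58 with GSK343. With HKMTI-1-005+ATRA it was at 8.64, 8.74 and 8.89, against 9.72, 9.76 and 9.29 with HKMTI-1-005. All 3 pairs of groups were apart, with each ATRA array below each array without it, as were 24.9%, 21.9% and 13.1% of genes in the same order of pairs. The log2 fold changes were -1.41 (SE 0.20, adjusted p = 1.8e-05) against untreated cells, -1.31 (SE 0.20, adjusted p = 7.91e-05) under GSK343 and -0.83 (SE 0.20, adjusted p = 0.0137) under HKMTI-1-005, all called by limma. CDK6 was the single member called in each of these comparisons, where 13.1%, 10.4% and 4.05% of genes were called. The call under HKMTI-1-005 was lost without HKMTI-1-005 replicate 1 (adjusted p = 0.0842) or 2 (adjusted p = 0.0995), and without HKMTI-1-005+ATRA replicate 1 (adjusted p = 0.0808) or 2 (adjusted p = 0.0558). The others kept it without any single array.

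The knockdown experiment gave smaller values for the same kinase. CDK6 was at 8.26, 8.59 and 8.80 with shEZH2#2+ATRA, against 9.55, 9.19 and 9.43 with shEZH2#2, a log2 fold change of -0.84 (SE 0.20, adjusted p = 0.00915, limma) that was called. It was at 9.00, 9.17 and 9.29 with shEZH2#1+ATRA, against 9.64, 9.57 and 9.44 with shEZH2#1 (-0.40, adjusted p = 0.332). These groups did not overlap for either hairpin, as for 13% of genes under shEZH2#2 and 14.4% under shEZH2#1, but the second change did not pass the test. WT+ATRA cells had 9.25, 9.02 and 9.13, against 9.58, 9.65 and 9.85 in WT cells, also without overlap (-0.56, adjusted p = 0.251), like 10.3% of genes. Scr+ATRA cells had 9.32, 8.97 and 8.52, against 9.19, 9.08 and 9.51 in Scr cells, and these groups overlapped (-0.32, adjusted p = 0.5), where 5.88% of genes were apart and lower. Under shEZH2#2 8.36% of genes were called with CDK6 as the single member, and 0 of 7 members were called in WT (2.13% of genes) or Scr cells (4.98%), where 1 of 9 in each had an unadjusted p under 0.05. Without the 6 arrays of high median the shEZH2#2 value was -0.94 (adjusted p = 0.00716) and the mean over all backgrounds -0.82 (adjusted p = 1.38e-08). The shEZH2#2 call was lost without shEZH2#2+ATRA replicate 1 (-0.69, adjusted p = 0.105) or shEZH2#2 replicate 1 (-0.76, adjusted p = 0.0514).

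Whether the ATRA response of CDK6 differed between settings was tested with 4 interaction terms, and none passed for any member. The response of WT cells minus that of untreated cells in the other experiment was 0.85 (95% interval 0.26 to 1.43, adjusted p = 0.427), that is, smaller in WT cells. The response under HKMTI-1-005 minus that without it was 0.57 (95% interval -0.01 to 1.15, adjusted p = 1), and under GSK343 it was 0.10 (95% interval -0.48 to 0.68, adjusted p = 1). Knockdown minus Scr gave -0.30 (95% interval -0.80 to 0.20, adjusted p = 0.803), a term in which 0.0814% of genes were called. In the other 3 terms 0% of genes were called. The intervals are not adjusted for the number of genes.

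Ordered by mean, the 7 groups with ATRA were the 7 lowest for CDK6, running over ATRA (8.46), shEZH2#2+ATRA (8.55), GSK343+ATRA (8.63), HKMTI-1-005+ATRA (8.76), Scr+ATRA (8.94), WT+ATRA (9.13) and shEZH2#1+ATRA (9.15). Above them came Scr (9.26), shEZH2#2 (9.39), shEZH2#1 (9.55), HKMTI-1-005 (9.59), WT (9.69), untreated (9.87) and GSK343 (9.94). Neighbours in this order were 0.02 to 0.19 apart, less than the pooled SD within groups of 0.26, so that only distant groups can be separated. The plot of CDK6 and CCND2 in the 42 arrays shows this order beside the spread.

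**Figure D1:**
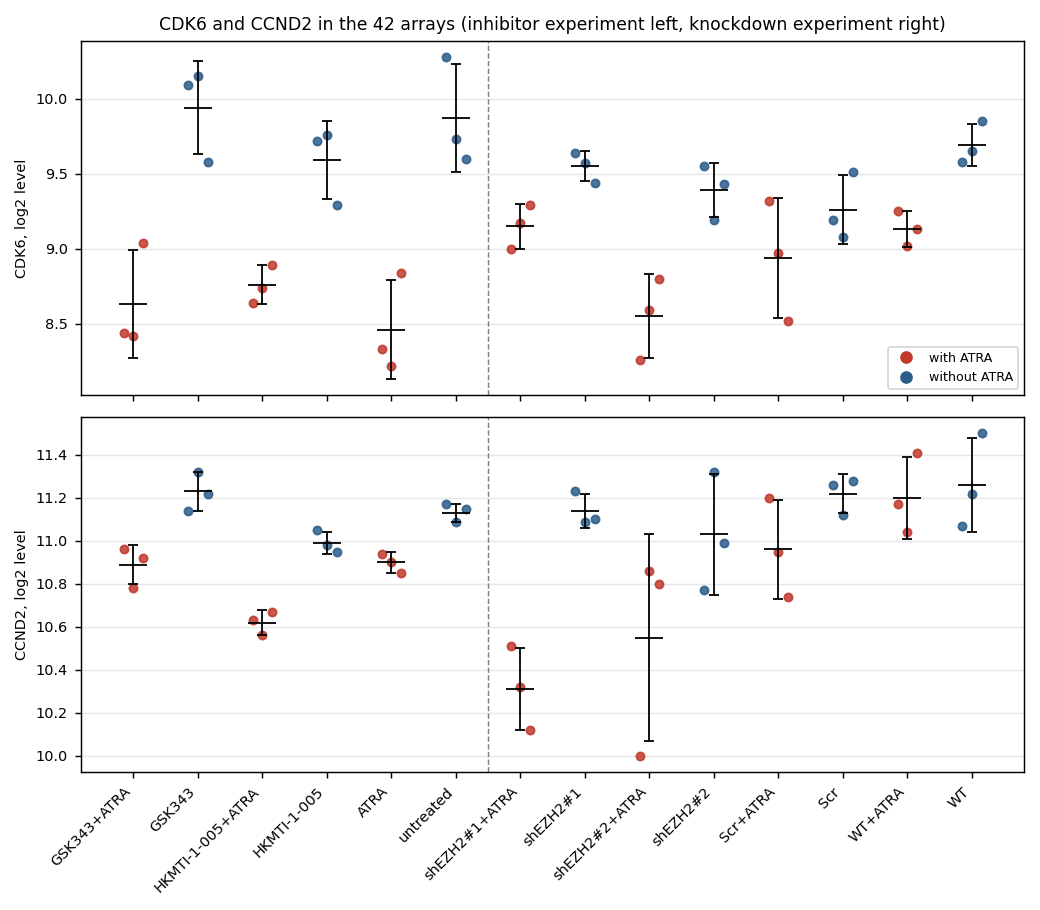
Log2 level of CDK6 (top) and CCND2 (bottom) in each array (points, 3 per group, in replicate order from left to right), with the group mean and SD (bars), with a dashed line between the inhibitor groups (left) and the knockdown groups (right). The 3 ATRA arrays of CDK6 lie between 8.22 and 8.84 against 9.60 to 10.28 in untreated cells, and the CCND2 arrays with shEZH2#1+ATRA lie between 10.12 and 10.51 against 11.09 to 11.23 with shEZH2#1.

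The region before the start of transcription is shown for CDK6 and, further on, for CDK4, since these kinases share their cyclin partners and only CDK6 was called. RefSeq lists 2 starts for CDK6 on the minus strand of chromosome 7 (GRCh38.p14), and the 250 bases before each are given 5′ to 3′. Capitals mark the GC box, searched as GGGCGG on both strands, so that CCGCCC is the same motif on the other strand.
CDK6, chr7:92836574-92836823: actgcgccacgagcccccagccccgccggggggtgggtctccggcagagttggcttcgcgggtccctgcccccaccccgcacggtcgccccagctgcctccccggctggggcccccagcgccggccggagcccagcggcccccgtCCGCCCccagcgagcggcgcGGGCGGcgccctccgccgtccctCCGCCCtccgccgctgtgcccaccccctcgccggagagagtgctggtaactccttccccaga
CDK6, chr7:92833960-92834209: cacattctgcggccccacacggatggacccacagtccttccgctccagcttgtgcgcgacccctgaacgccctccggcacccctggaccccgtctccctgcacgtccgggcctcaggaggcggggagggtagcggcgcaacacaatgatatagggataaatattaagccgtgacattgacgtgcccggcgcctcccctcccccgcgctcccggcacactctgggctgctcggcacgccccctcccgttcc
The first window is 80% G and C and holds 3 GC boxes, and the second is 67.6% G and C and holds 0. Over 35116 such windows of 250 bases, 42.6% held at least 1 GC box. Neither window holds AGGTCA, a half-site of retinoid receptors (12.1% of windows), or TTTNNCGC, a common form of the E2F site (5.92% of windows). These are matches of letters, and the arrays do not tell which start HL-60 cells use.

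CDK4, the close relative of CDK6, was called in no comparison, but without the 6 arrays of high median it was called lower with shEZH2#2+ATRA than with shEZH2#2 (-0.42, adjusted p = 0.0398, against -0.27 with all arrays). Its mean ATRA change was -0.13 (SE 0.07, 95% interval -0.28 to 0.02, adjusted p = 0.228, limma), an interval that does not reach that of CDK6, although the difference between the genes was not itself tested. CDK4 was at 10.96, 11.11 and 11.35 in ATRA cells, against 11.44, 11.35 and 11.03 in untreated cells. These groups overlapped, with CDK4 higher with ATRA in replicate 3 and lower in replicates 1 and 2. It was at 11.57, 11.46 and 11.57 with HKMTI-1-005+ATRA, above the ATRA arrays without overlap (0.39, SE 0.19, 95% interval -0.00 to 0.79, adjusted p = 0.452), like 17.3% of genes. Across the 7 backgrounds the CDK4 change with ATRA lay between -0.27 and 0.03. The widest spread was in Scr+ATRA cells (11.30, 11.56 and 10.65), against 10.88, 10.97 and 11.68 in Scr cells, where the arrays of low CDK4 were the 3 with a high array median.

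RefSeq gives 1 start for CDK4, on the minus strand of chromosome 12 (GRCh38.p14). Capitals mark CACGTG, the E-box bound by MYC and its partners, shown because the CDK4 promoter is known as a MYC target.
CDK4, chr12:57752311-57752560: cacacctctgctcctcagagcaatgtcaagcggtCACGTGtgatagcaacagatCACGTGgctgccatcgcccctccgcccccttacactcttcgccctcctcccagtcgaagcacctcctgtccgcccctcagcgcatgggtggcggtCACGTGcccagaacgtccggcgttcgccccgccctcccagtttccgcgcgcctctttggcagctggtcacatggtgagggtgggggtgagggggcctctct
The window holds 3 such E-boxes, which begin 216, 196 and 101 bases before the start, and 6.34% of the 35116 windows hold at least 1. Neither CDK6 window has an E-box of this form. The CDK4 window also holds 3 GC boxes. Of the 10 genes, 9 had a start in the table, CCND2 being the exception.

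CCND2, the cyclin partner of these kinases, was lower with ATRA in 7 of 7 backgrounds, by a smaller amount than CDK6. The mean log2 fold change was -0.37 (SE 0.06, 95% interval -0.48 to -0.25, adjusted p = 7.03e-06, limma), or 77.6% of the level without ATRA. The fold of 1.29 lay just under the limit of 1.3, so that CCND2 was not called, although leaving out single arrays brought it over the limit in 7 of 42 cases. CCND2 was called in 1 background, shEZH2#1, where 8.65% of genes were called. There it was at 10.51, 10.32 and 10.12 with shEZH2#1+ATRA, against 11.23, 11.09 and 11.10 with shEZH2#1, without overlap (-0.83, SE 0.15, adjusted p = 0.000457, limma). With shEZH2#2+ATRA it was at 10.00, 10.86 and 10.80, against 10.77, 11.32 and 10.99 with shEZH2#2, and these groups overlapped (-0.47, SE 0.15, adjusted p = 0.0663). This change passed without shEZH2#2+ATRA replicate 2 (-0.63, adjusted p = 0.0196) or 3 (-0.60, adjusted p = 0.028), and without shEZH2#2 replicate 1 (-0.60, adjusted p = 0.0286).

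The inhibitor groups of CCND2 were tight and apart, with small differences. ATRA cells had 10.94, 10.90 and 10.85, against 11.17, 11.09 and 11.15 in untreated cells (-0.24, adjusted p = 0.447). HKMTI-1-005+ATRA cells had 10.63, 10.56 and 10.67, against 11.05, 10.98 and 10.95 with HKMTI-1-005 (-0.37, adjusted p = 0.26). GSK343+ATRA cells had 10.96, 10.78 and 10.92, against 11.14, 11.32 and 11.22 with GSK343 (-0.34, adjusted p = 0.217). In all 3 pairs each ATRA array lay below each array without ATRA, like 24.9% of genes in untreated cells, 13.1% under HKMTI-1-005 and 21.9% under GSK343. None of the 3 changes passed the adjusted p of limma. Each was also below the fold limit of 1.3, so that none could be called whatever its p. The test pools its variance over all 14 groups. The pooled SD of CCND2 was 0.19, against 0.04 to 0.09 in these 6 groups. A fit of each experiment alone was run, but its p-values for these pairs are not given here. In WT cells the values lay close together, at 11.17, 11.04 and 11.41 with ATRA, against 11.07, 11.22 and 11.50 without (-0.06, adjusted p = 0.947).

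**Figure D2:**
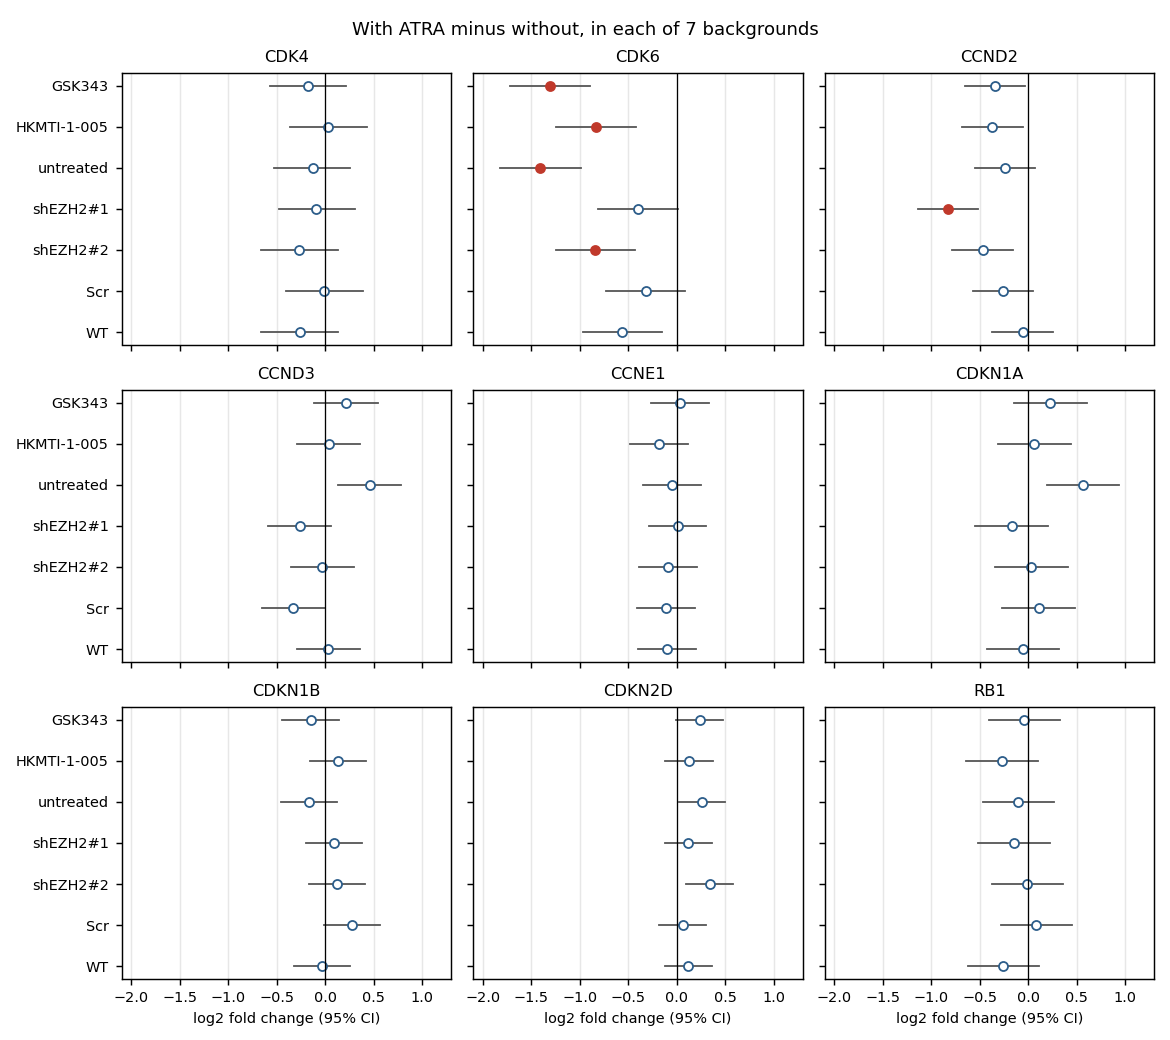
Log2 fold change with ATRA minus without, for each of the 9 measured genes in each of the 7 backgrounds, with 95% intervals (lines) from limma, 3 arrays against 3. Red points were called: CDK6 in 4 backgrounds and CCND2 in 1, and no other point was.

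CCND2 was also the one member called between EZH2 knockdown and its controls, and it was called in the presence of ATRA. EZH2 knockdown+ATRA cells (10.51, 10.32 and 10.12 with shEZH2#1, and 10.00, 10.86 and 10.80 with shEZH2#2) stood against 11.20, 10.95 and 10.74 in Scr+ATRA cells. The log2 fold change was -0.53 (SE 0.13, adjusted p = 0.0183, limma), and the groups overlapped through the highest shEZH2#2+ATRA arrays. CCND2 was the 1 of 7 testable members called there, where 5.38% of genes were called. The call was lost without Scr+ATRA replicate 1 (-0.41, adjusted p = 0.147) with shEZH2#2 alone (-0.41, adjusted p = 0.193) and in 1 fit per experiment (adjusted p = 0.121), and held without the 6 arrays of high median (-0.64, adjusted p = 0.0123). Against WT+ATRA cells, at 11.17, 11.04 and 11.41, all 6 knockdown arrays were lower, like 4.93% of genes (-0.77, SE 0.13, adjusted p = 0.00075, limma). Of all genes, 3.28% were called there, and this call held without any single array. Without ATRA, the difference of knockdown cells was not called against Scr cells (-0.13, 95% interval -0.40 to 0.14) or WT cells (-0.18, 95% interval -0.45 to 0.09). The ATRA response of knockdown minus Scr cells was -0.40 (95% interval -0.78 to -0.02, adjusted p = 0.593), so that a larger response in knockdown cells did not pass the test. Scr and WT serve both ATRA and knockdown comparisons, which are therefore not independent.

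For CCND2 the lowest group means were those of shEZH2#1+ATRA (10.31), shEZH2#2+ATRA (10.55) and HKMTI-1-005+ATRA (10.62), followed by GSK343+ATRA (10.89), ATRA (10.90) and Scr+ATRA (10.96). The other 8 groups lay between 10.99 and 11.26, WT+ATRA among them at 11.20. The gaps of 0.24 above shEZH2#1+ATRA and 0.27 above HKMTI-1-005+ATRA were larger than the pooled SD within groups of 0.19, and all other neighbours were closer than that.

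CCND3, the other D cyclin measured, had the opposite sign to CCND2 in untreated cells. It was at 11.03, 10.95 and 10.65 in ATRA cells, against 10.61, 10.25 and 10.39 in untreated cells, without overlap (0.46, SE 0.16, adjusted p = 0.071, limma). Groups were apart and higher with ATRA for 17.3% of genes there. This did not pass the test, but it passed without ATRA replicate 3 and in 4 other settings given under the processing. Of the other 6 backgrounds 3 were higher with ATRA (0.21 under GSK343, 0.04 under HKMTI-1-005 and 0.03 in WT cells) and 3 lower, the lowest being Scr (-0.33, adjusted p = 0.333). Scr+ATRA had the lowest group mean of CCND3 (10.40, 10.49 and 9.86), and EZH2 knockdown+ATRA arrays, between 10.58 and 10.86, all lay above it, like 7.33% of genes (0.45, SE 0.14, adjusted p = 0.0617). That value was 0.57 (adjusted p = 0.0325) without Scr+ATRA replicate 2 and 0.26 (adjusted p = 0.383) without the 6 arrays of high median, of which Scr+ATRA replicate 3 is one. Against WT+ATRA cells the difference was 0.01 (95% interval -0.27 to 0.29).

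CCNE1, which encodes cyclin E1, stayed within a narrow range. Its 14 group means spanned 0.36 log2 units, with a pooled SD within groups of 0.18. The mean ATRA change was -0.07 (95% interval -0.18 to 0.04, adjusted p = 0.413), and it was not called in any comparison. The highest group, shEZH2#2 (8.44, 8.20 and 8.52), stood beside 8.31, 8.24 and 8.16 in WT cells and 7.95, 8.18 and 8.28 in Scr cells.

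Of the CIP/KIP inhibitors, CDKN1A had a low signal with a mean of 5.26 over all arrays. It was at 5.86, 5.45 and 5.28 in ATRA cells, against 5.13, 4.76 and 5.01 in untreated cells, without overlap (0.56, SE 0.18, adjusted p = 0.0531, limma), where 17.3% of the 7367 genes were apart and higher. Under GSK343 the first array alone was high (5.91, 5.10 and 5.19 with GSK343+ATRA, against 5.19, 5.06 and 5.28 with GSK343). In the knockdown experiment the ATRA change of CDKN1A lay between -0.17 and 0.11, and the mean over 7 backgrounds was 0.11 (95% interval -0.03 to 0.25, adjusted p = 0.3). CDKN1B varied less, with group means over a span of 0.36 and a mean ATRA change of 0.04 (95% interval -0.07 to 0.15). Its lowest arrays were Scr replicate 1 (8.78), shEZH2#2 replicate 2 (8.79) and Scr replicate 2 (8.90), all of high array median.

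CDKN2D, the INK4 inhibitor of the D-cyclin kinases, showed a small ATRA change that had the same sign in 7 of 7 backgrounds. The mean was 0.18 (SE 0.04, 95% interval 0.09 to 0.27, adjusted p = 0.00239, limma), a 1.13-fold difference that is below the fold limit. It was at 6.48, 6.34 and 6.11 in ATRA cells, against 6.05 in each of the 3 untreated arrays. With shEZH2#2+ATRA it was at 6.28, 6.30 and 6.38, against 6.05, 5.99 and 5.90 with shEZH2#2. These groups did not overlap in either case, like 17.3% and 10.4% of the 7367 genes, to which CDKN2D does not belong, whereas they did in the other 5 backgrounds. Single backgrounds gave 0.06 to 0.34, none of which passed the test.

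RB1, the substrate of these kinases, had a mean ATRA change of -0.11 (95% interval -0.24 to 0.03, adjusted p = 0.299) and was called in no comparison. It was at 10.93, 10.77 and 10.82 with HKMTI-1-005+ATRA, against 11.01, 11.16 and 11.15 with HKMTI-1-005, the one background where ATRA and control arrays did not overlap (-0.27, adjusted p = 0.675), like 13.1% of genes. Within groups, the RB1 level followed the median of the array. Deviations from the group mean of RB1 and of the array median had r = -0.86 over the 42 arrays, beside -0.80 for CDK4, -0.70 for CDKN1B and -0.59 for CCNE1. For CDK6 and CCND2 the values were -0.25 and 0.31. In the 24 knockdown arrays alone, r was -0.88 for RB1, -0.53 for CCND3, -0.49 for CDKN1A, -0.40 for CDK6 and 0.35 for CCND2. In the 18 inhibitor arrays it was -0.74 for RB1, 0.35 for CCND3, 0.27 for CDKN1A, -0.04 for CDK6 and -0.07 for CCND2. These describe arrays that share their processing, and the part of the array median in the levels of these genes was not tested.

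**Figure D3:**
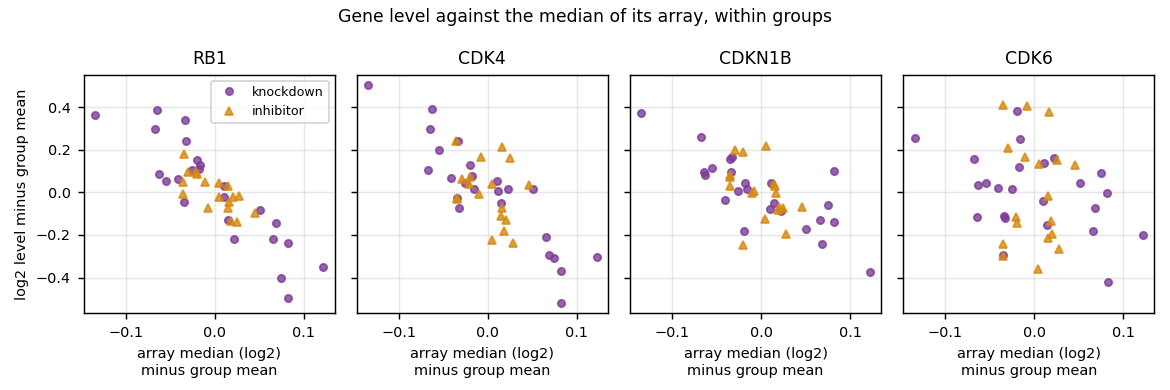
Deviation of RB1, CDK4, CDKN1B and CDK6 from their group mean (log2, vertical axis) against the deviation of the array median from its group mean (log2, horizontal axis), 1 point per array, with knockdown arrays as circles and inhibitor arrays as triangles. RB1 (r = -0.86), CDK4 (-0.80) and CDKN1B (-0.70) are lower on arrays with a higher median. CDK6 shows a weaker such slope (r = -0.25, with -0.40 in knockdown arrays and -0.04 in inhibitor arrays).

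Neither inhibitor led to a call of a member, with or without ATRA. With GSK343 against untreated cells, 0 of 7 testable members were called by limma and 0 of 9 had an unadjusted p under 0.05, in a comparison with 0.0136% of genes called. The same held for HKMTI-1-005 against untreated cells (0.217% of genes called), GSK343+ATRA against ATRA (0.0136%) and HKMTI-1-005+ATRA against ATRA (0.76%). Without overlap, CCND2 was lower with HKMTI-1-005 than in untreated cells (10.95 to 11.05, against 11.09 to 11.17), like 5.73% of genes. It was also lower with HKMTI-1-005+ATRA than with ATRA (10.56 to 10.67, against 10.85 to 10.94), like 6.38%. CDK4 and RB1 were apart and higher with HKMTI-1-005 than in untreated cells, like 9.35% of genes. CDK4 was also apart and higher with HKMTI-1-005+ATRA, as given above. With GSK343 the CCND2 groups overlapped. For CDK6 the 95% intervals of the log2 fold change were -0.34 to 0.48 with GSK343 and -0.69 to 0.13 with HKMTI-1-005, so that changes of moderate size remain possible. With ATRA they were -0.24 to 0.58 and -0.12 to 0.71. The unpaired test that the methods name, run without adjustment, called CDK4 in HKMTI-1-005+ATRA against ATRA and 0 members in the other 3 comparisons. GSK343 was used at 10 µM and HKMTI-1-005 at 2.5 µM, so these values stand side by side and the compounds were not compared with each other.

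EZH2 knockdown without ATRA likewise called 0 of 7 members. Against Scr cells, CDKN1A alone of the 9 had an unadjusted p under 0.05, where 6.12% of genes were called. CDKN1A was at 5.35, 5.12 and 5.60 with shEZH2#1 and 5.47, 5.15 and 5.32 with shEZH2#2, against 4.96, 4.74 and 5.26 in Scr cells and 5.78, 5.26 and 5.25 in WT cells. The knockdown arrays overlapped both controls (0.35, adjusted p = 0.21 against Scr, and -0.10, adjusted p = 0.874 against WT). Against WT cells 0 of 9 members had an unadjusted p under 0.05, where 0.407% of genes were called.

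The controls differed from each other. All 9 genes were lower in Scr than in WT cells, as were 72.4% of the 7367 genes. Of the 7 testable members 0 were called (21.6% of genes were called, 18.4% as lower). An unadjusted p under 0.05 was found for CDK4, CDK6, CDKN1A and CDKN1B. Without the 6 arrays of high median, which leave 1 Scr array, 3 of 9 were lower (CDK6, CDKN1A and CDKN2D), and RB1 (-0.31 with all arrays) and CCNE1 (-0.10) gave 0.06 and 0.05. The median difference was -0.31 for the 7 members and -0.20 for all 7367 genes. CDK6 was at 9.19, 9.08 and 9.51 in Scr cells, against 9.58, 9.65 and 9.85 in WT cells, without overlap, like 20.2% of genes (-0.44, adjusted p = 0.152). CDK4 was at 10.88, 10.97 and 11.68 in Scr cells, against 11.50, 11.63 and 11.59 in WT cells (-0.40, adjusted p = 0.172), and this value was 0.10 without the 6 arrays of high median. Without Scr replicate 3, which had an ordinary median, CDK4 (-0.65, adjusted p = 0.0123) and CDKN1B (-0.50, adjusted p = 0.00945) were called lower in Scr, and CDK4 (0.52, adjusted p = 0.0355), CDKN1B (0.38, adjusted p = 0.0344) and RB1 (0.48, adjusted p = 0.0451) higher in EZH2 knockdown than in Scr. With ATRA, 0 of 7 members were called between Scr and WT, where 0.991% of genes were called, and CCND3 alone had an unadjusted p under 0.05.

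**Figure D4:**
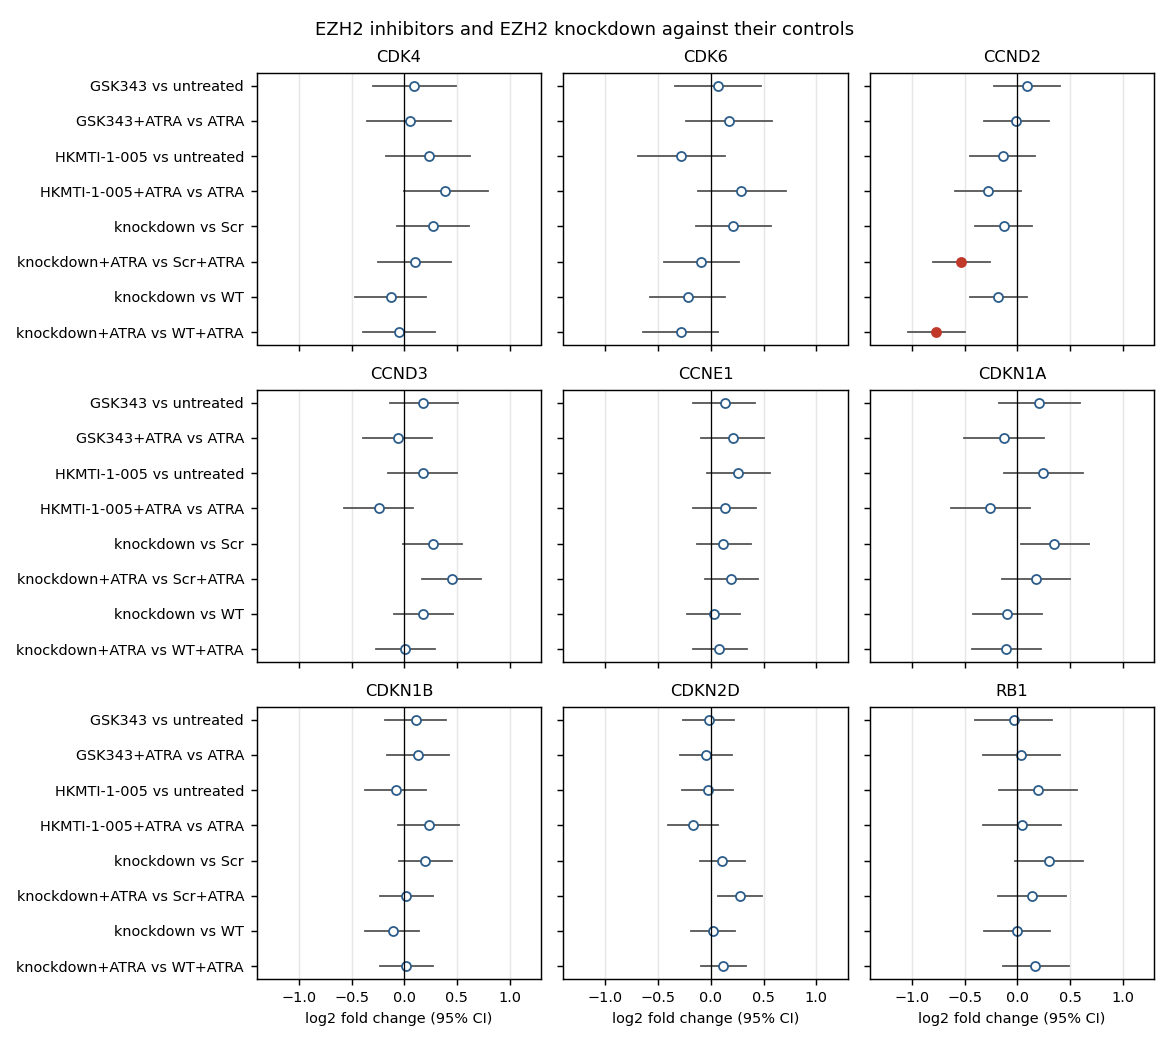
Log2 fold change of each of the 9 genes for GSK343, HKMTI-1-005 and EZH2 knockdown (both hairpins) against the named control, with 95% intervals (lines) from limma. The 2 red points, CCND2 in knockdown+ATRA against Scr+ATRA (-0.53) and against WT+ATRA (-0.77), were called, and the other points were not.

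Around these genes, other regulators of the step from G1 to S were read from a list of 30, of which 29 were measured and 24 lay in the top 40%. In the mean ATRA comparison, CCNE2 was called higher and E2F5 and TFDP2 lower, 3 of 24 beside 11.5% of all genes, and the median of the 24 was -0.04 beside -0.02 for all 7367 genes. CCNE2, the second cyclin E, averaged 9.22 ± 0.13 in ATRA cells and 8.06 ± 0.17 in untreated cells (SD, n = 3 each), a log2 fold change of 1.15 (adjusted p = 0.0085, limma). It rose with GSK343+ATRA as well (1.01, adjusted p = 0.0253), in contrast to CCNE1, which gave 0.03 there. E2F5, a repressor-type E2F that works with RB family proteins, averaged 7.07 ± 0.24 in ATRA cells and 8.18 ± 0.11 in untreated cells (SD, n = 3 each) and was called lower in 5 of 7 backgrounds. TFDP2, a dimerisation partner of E2F proteins, was called lower in 4 of 7, for example under GSK343 (-0.84, adjusted p = 3.5e-05). Being called lower in 4 or more backgrounds held for 1.59% of the 7367 genes.

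E2F5 and TFDP2 were also called lower with EZH2 knockdown than in Scr cells, but not against WT cells. E2F5 averaged 7.02 ± 0.17 in knockdown+ATRA cells (SD, n = 6) and 8.04 ± 0.03 in Scr+ATRA cells (SD, n = 3), a difference of -1.02 (adjusted p = 0.000492, limma). TFDP2 gave -0.60 there (adjusted p = 0.000878) and -0.45 without ATRA (adjusted p = 0.0143), whereas E2F5 was not called without ATRA (-0.24, adjusted p = 0.474). Against WT+ATRA cells, knockdown+ATRA gave -0.59 for E2F5 (adjusted p = 0.0643) and -0.34 for TFDP2 (adjusted p = 0.1), and without ATRA the differences from WT cells were -0.37 and -0.17. Calls in a single comparison, each of ATRA, began with RBL2, a relative of RB1, in ATRA against untreated cells (-0.40). The others were CDK7 in GSK343+ATRA against GSK343 (-0.45) and MNAT1 in shEZH2#1+ATRA against shEZH2#1 (-0.43). CDK7 and MNAT1 encode subunits of the kinase that activates CDKs. In the same order of comparisons, 7.85%, 7.06% and 3.75% of genes were called lower. CCND1, which encodes cyclin D1, was called lower with ATRA under shEZH2#1 and shEZH2#2 (-0.51 each). E2F4 (-0.48) and CCNC (-0.91) were called lower in Scr than in WT cells, where 18.4% of genes were called lower. Of the 3 Scr arrays, 2 had a high median, and these list genes were not refitted without such arrays.

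Genes that E2F proteins are known to switch on for DNA replication mostly stayed under the fold limit. Of 23 measured genes, all in the top 40%, 11 passed the adjusted p of limma as lower and 1 as higher in the mean ATRA comparison, against 25.1% and 17.8% of all 7367 genes. With the fold limit 1 was called lower, CDT1, a licensing factor (-0.45, adjusted p = 7.26e-06), and 0 higher, where 5.36% of genes were called lower and 6.09% higher. The median of the 23 was -0.15 beside -0.02 for all genes, with 19 of 23 below 0, as were 55.6% of all genes. CDC6 (-0.53, adjusted p = 0.0247) and CDC45 (-0.49, adjusted p = 0.0381), which act in loading and firing replication origins, were called lower with shEZH2#2+ATRA against shEZH2#2. MCM5 was called lower in Scr than in WT cells (-0.67, adjusted p = 0.0378), like 18.4% of genes, and was not refitted without the arrays of high median. In ATRA against untreated cells, where CDK6 changed most, 0 of 23 E2F targets were called by limma, where 13.1% of genes were. Their median there was -0.18 beside -0.05 for all genes, with 19 of 23 below 0, as were 56.9% of all genes.

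Targets of p53 were included because CDKN1A is one, although HL-60 cells are known to lack p53. Of 18 measured, 11 lay in the top 40%, and 3 were called lower in the mean ATRA comparison, where 5.36% of genes were called lower and 6.09% higher. They were DDB2, a DNA repair factor (-0.75, adjusted p = 9.35e-14, limma), the growth arrest gene GADD45A (-0.70, adjusted p = 1.12e-08) and the death receptor gene TNFRSF10B (-0.38, adjusted p = 0.000211). In ATRA against untreated cells, 7 of the 11 were above 0, with a median of 0.16 beside -0.05 for all genes. DDB2 was called lower in 7 of 7 backgrounds, averaging 6.90 ± 0.12 in ATRA cells and 7.80 ± 0.12 in untreated cells (SD, n = 3 each). GADD45A was called lower with ATRA in WT, Scr, shEZH2#1 and shEZH2#2 cells, and TNFRSF10B under shEZH2#1 (-1.19) and shEZH2#2 (-0.92) alone. Neither was called with ATRA in any background of the inhibitor experiment. Of all 7367 genes, 1.59% were called lower in 4 or more backgrounds. GADD45A was higher with EZH2 knockdown than in Scr cells (0.91, adjusted p = 0.00368), and FAS, a death receptor gene, likewise (0.41, adjusted p = 0.0439). Against WT cells neither was called (-0.08, adjusted p = 0.912 for GADD45A, and 0.08, adjusted p = 0.856 for FAS). GADD45A was itself lower in Scr cells, averaging 6.75, than in WT cells, averaging 7.74 (-0.99, adjusted p = 0.00294), and averaged 7.66 with knockdown. TNFRSF10B was called lower in knockdown+ATRA than in WT+ATRA cells (-0.81), like 1.68% of genes, but not against Scr+ATRA cells (-0.24). Between Scr and WT cells 4 of the 11 were called lower, GADD45A, SESN2 (-1.21), ZMAT3 (-1.09) and PPM1D (-0.67). They were not refitted without the arrays of high median. Of all genes, 18.4% were called lower in Scr than in WT cells. None of the 11 was called higher with ATRA in that mean, while CDKN1A, below the top 40%, gave 0.11.

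**Figure D5:**
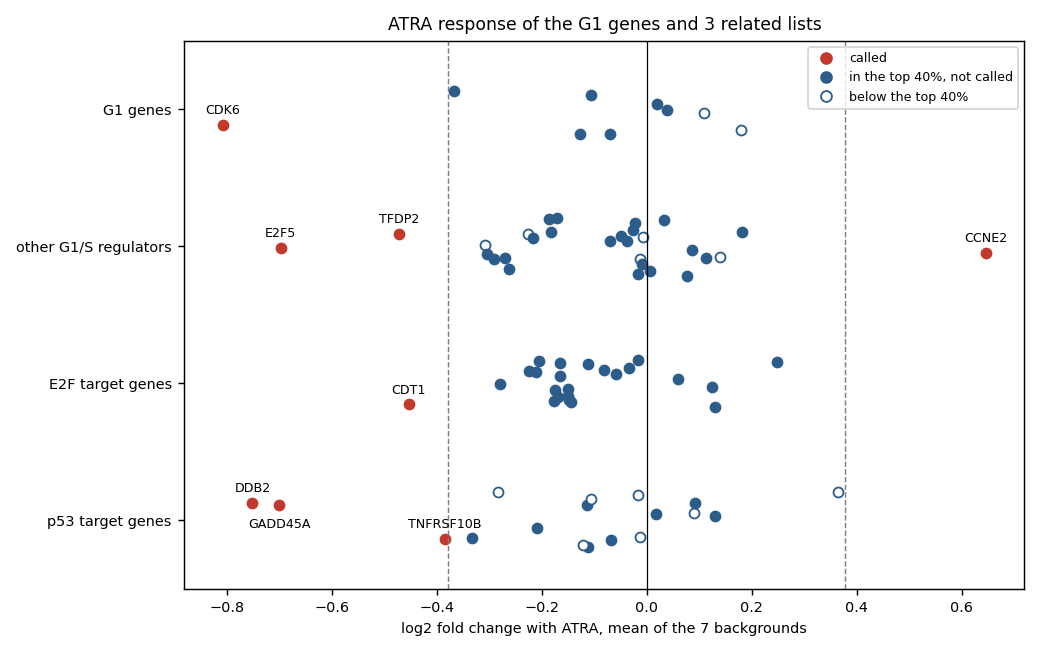
Log2 fold change with ATRA, mean of the 7 backgrounds, for the 9 G1 genes and 3 related lists, 1 point per gene with vertical scatter for legibility, and dashed lines at 1.3-fold. Called genes (red, named) are CDK6 (-0.81), E2F5, TFDP2, CCNE2 (0.65), CDT1, DDB2, GADD45A and TNFRSF10B, and open points lie below the top 40% of genes.

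Across the 14 group means, the genes whose pattern was most like that of CDK6 were NT5DC3, MAP3K21 and PKP4, each with Pearson r = 0.97 among the 7367 genes. For CCND2 they were MND1 (r = 0.96), CSNK2A2 (0.95) and SLC7A2 (0.94). CCND3 had weaker neighbours, TNIK (0.86), ARRDC3 (0.85) and ATP11A (0.83). Among the members themselves, the closest pairs over the 14 group means were CCND3 with CDKN1A (r = 0.78), CDK4 with RB1 (0.63) and CDK6 with CCND2 (0.60). CDKN2D ran opposite to CDK6 (r = -0.66) and CCND2 (-0.64). These values describe 14 means that share arrays and processing.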

How the data were processed

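RNA of HL-60 cells was labelled with biotin and hybridised to Affymetrix Human Gene 1.0 ST arrays. GC-RMA was applied by the authors, who then removed batch effects in Partek, as the submitters' processing notes and the series' design text state, and they deposited log2 values. That they are log2 was taken from their range (3.18 to 14.49). Software versions and batch labels were not given in the sources used here. No batch term was fitted, and p-values may be too small because the fit does not know what that step removed. All 42 value columns were used (0 left out), and 0 pairs of arrays held identical values.

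Of 33297 probe sets, 19460 carry 1 gene symbol in the platform annotation, 1754 several and 12083 none. The probe set of highest mean with 1 symbol stood for a gene, which gave 18417 genes. The top 40% by mean (lowest mean 6.88) could be called. One model with a mean for each group covered the 42 arrays (limma 3.58.1, R 4.3.3), with residual degrees of freedom of 28 and prior ones of 3.37. Benjamini-Hochberg adjustment ran over all 18417 genes, and calls needed an adjusted p up to 0.05 and a fold of 1.3 or more. There were 18 comparisons of groups and 4 interaction terms. The fit was tested on simulated data.

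The members and the gene lists were chosen with earlier results of these data known. Named in the text are all members, EZH2, called genes of the list of other G1/S regulators, up to 3 called genes a direction of the E2F and p53 lists, and the 3 genes most like each of the 3 members of widest range. Alternatives changed the block, the samples fitted, the scaling, the probe sets, the filter, the test and the arrays. Added after seeing the data were each hairpin alone, WT as the control of the interaction with knockdown, and the array median as a covariate. Promoter windows are those of RefSeq on GRCh38.p14, with motifs searched on both strands.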

Additional observations from a re-analysis of the deposited data

Results flagged for a closer look

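Among the 6 arrays of shEZH2#1 and shEZH2#2 together, 1 array lay far from the other 5 for CDKN1B and for CDKN2D. For CDKN1B, shEZH2#2 replicate 2 was at 8.79, and its gap to the nearest array was 0.695 of the whole range. For CDKN2D, shEZH2#1 replicate 1 was at 6.47, and its gap was 0.662 of the range. Both arrays are among the 6 knockdown arrays of high median, and the part of that in these values was not tested. Such gaps were looked for in 18 groups of 6 arrays, of which chance marks about 1 in 20.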

How the results depend on the processing

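The 22 counts of called members and the fold changes behind them were recomputed under each alternative. The unpaired t-test of the study's general statistics was run with Benjamini-Hochberg adjustment. It called 0 members in ATRA against untreated cells and in the ATRA comparisons under GSK343, HKMTI-1-005, shEZH2#1 and shEZH2#2. In EZH2 knockdown+ATRA against Scr+ATRA and against WT+ATRA it also called 0. Without adjustment it called 2 in ATRA against untreated cells (CDK6 and CCND3) and 2 under shEZH2#1, and 1 each in WT+ATRA against WT (CDK6), HKMTI-1-005+ATRA against ATRA (CDK4) and Scr against WT (CDK6). In ATRA against untreated cells, 1 fit per experiment, quantile normalization and the array median as a covariate each called 2, CCND3 being the second. In EZH2 knockdown+ATRA against Scr+ATRA, 1 fit per experiment called 0 (CCND2 adjusted p = 0.121), as did shEZH2#2 alone. Centring on array medians called 1 in Scr against WT (CDK6, -0.59, adjusted p = 0.0484). In shEZH2#2+ATRA against shEZH2#2, fits without the 6 arrays of high median and with the covariate called 2. Leaving out each array in turn gave counts of 1 to 2 for the ATRA mean and for ATRA against untreated cells, 0 to 1 under HKMTI-1-005 and Scr, 0 to 2 under shEZH2#2, 0 to 3 for EZH2 knockdown against Scr, 0 to 2 for the same with ATRA and 0 to 2 for Scr against WT. The cause of these changes was not tested. Scr, with 2 of its 3 arrays of high median, sets several signs. Without the 6 arrays, CDK4 gave -0.08 for EZH2 knockdown against Scr and 0.10 for Scr against WT, and CDKN1B gave -0.07, 0.06 and, for Scr+ATRA against Scr, -0.14. Signs also turned for CDK6 in EZH2 knockdown against Scr (0.21 with all arrays, -0.01 without the 6) and for CDKN1A (0.11, -0.25) and RB1 (0.08, -0.16) in Scr+ATRA against Scr. With the covariate, knockdown against Scr was -0.05 for CDK4, -0.0032 for CDKN1B and -0.02 for RB1, and Scr against WT was 0.13 for CDK4 and 0.02 for CDKN1B. The median difference of all genes between Scr and WT was -0.20, and -0.36 after centring, and for knockdown against Scr it was 0.13 and 0.22. In the deposited values replicate numbers did not pair the arrays in a consistent way. Correlations between arrays of 1 number lay between -0.73 and 0.66, and 8 of 18 inhibitor and 6 of 24 knockdown arrays were nearest to their own number. In the inhibitor experiment the mean r was -0.19 within replicate 3, against 0.10 and 0.09 within replicates 1 and 2. Whether the ATRA response differed between replicates was not tested. Batch effects had already been removed from the deposited values, so these correlations cannot tell whether replicates were handled together. A fit with the replicate block changed no count of called members (1 for the ATRA mean). The t-test has no value for the interaction terms, and 1 fit per experiment has none for the ATRA mean or the term between experiments. With 3 arrays a group, changes of moderate size can be missed.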
